A study of Mus musculus with 16 samples.

Results

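The 4 libraries of postnatal day 14 (P14) were examined here, 2 from retinas labelled Uxt conditional knockout (CKO) and 2 from retinas labelled control, out of 16 libraries in the series. They were chosen by their labels alone, and the comparison ran over 21115 tested genes of 54532 gene identifiers. In the study, retinal polyA RNA of C57BL/6 mice was sequenced at P1, P7, P14 and P30, with 2 CKO and 2 control libraries at each age. CKO mice came from crosses of Chx10-Cre mice with mice in which loxP sites flank exon 3 of Uxt. This Cre line acts in retinal progenitors, the cells from which retinal neurons and Müller glia descend. The labels give the alleles of the control mice no further than "control", and they do not say whether the libraries came from separate animals or from pooled retinas. The p-values therefore measure the spread between these libraries, which may be technical.

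Uxt encodes a small protein of the prefoldin family that occurs in a complex with the URI1 protein and its partners, together with RUVBL and prefoldin subunits. Retinal neurons arise from progenitors in a fixed sequence, with rods and bipolar cells among the last, and in the mouse outer segments grow and synapses mature around the time of eye opening, near the age sampled here. Rods hold their visual pigment in stacked outer segment discs and signal through transducin, a phosphodiesterase and a cyclic nucleotide gated channel, while bipolar, horizontal and amacrine cells pass the signal to ganglion cells, and Müller glia span the tissue.

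Total counts were 18652581 to 19690787 in the 4 libraries, and 3 counts corresponded to 0.161 to 0.202 CPM, counts scaled to a common library total. Levels are given in this order throughout: control replicates 1 and 2, then CKO replicates 1 and 2, as CPM after scaling by trimmed means (TMM). All 24 defining markers of retinal neurons and Müller glia fixed for the check of the tissue had more than 3 counts in both control libraries, and 22 of the 24 in both CKO libraries. Transcripts of other eye tissues were also present, and crystallins, the structural proteins of the lens, took 9.69% and 9.84% of all counts in the control and 6.71% and 6.58% in the CKO libraries. The mitochondrial share was 1.88% and 1.93% in the control and 2.46% and 2.39% in the CKO libraries. Xist, which is expressed from the inactive X chromosome of females, stood at 1193, 1210, 828 and 790 CPM, and 4 genes of the Y chromosome had 0 to 2 counts per library. At P7 the mean Xist level was 2.13 CPM in the control and 1369 CPM in the CKO group, so sex and genotype cannot be told apart there, and at P30 both groups were below 1 CPM. The 2 CKO libraries of P30 stood further apart than other replicate pairs: chi-square divided by its degrees of freedom was 31.7 there against 1.54 and 1.66 for the P14 control and CKO pairs.

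Uxt lies on chromosome X from 20941722 to 20962017 in mm10, on the minus strand, and its exon 3 has 82 bases of 1639 exonic bases. Its level was 5.41, 7.61, 8.14 and 7.97 CPM. The CKO libraries were not lower than the control libraries, so the libraries are called by their labels here. The log2 fold change of CKO over control was 0.31 (SE 0.18, edgeR quasi-likelihood test with Benjamini-Hochberg adjustment, adjusted p = 0.155), and without control replicate 2 it was 0.62 (adjusted p = 0.0211). Counts per gene do not separate exon 3 from the rest, so they may not show a deletion of that exon. Of the 17 tested genes within 500 kb of Uxt, 2 were higher and 9 lower, with a median log2 fold change of -0.13, where 30.5% of all tested genes were higher and 27.8% lower. Among the prefoldin and URI complex genes, 9 of 14 rose and 1 fell (median 0.25, or 0.00 with library size alone as the scale), against 30.5% of all genes higher and 27.8% lower. Uri1, which gives the complex its name, stood at 66.5, 64.5, 81.3 and 74.3 CPM (log2 fold change 0.25, SE 0.07, adjusted p = 0.00370), and Vbp1, a prefoldin subunit, at 64.1, 65.4, 41.7 and 46.9 CPM (-0.55, SE 0.08, adjusted p = 5.95e-06).

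At P14, 12300 of the 21115 genes passed an adjusted p of 0.05, 6440 of them higher in the CKO libraries (30.5% of the genes tested) and 5860 lower (27.8%). With a fold change of at least 2 as well, 1878 genes were higher (8.89%) and 3088 lower (14.6%). The 2 CKO libraries lay on the same side of both control libraries for 16888 genes (80.0%), so a gene whose groups do not overlap is not unusual here. The median log2 fold change of all genes was 0.02 on the TMM scale. It was -0.23 with library size alone, 0.08 with relative log expression (RLE) factors and 1.02 with scaling on the summed counts of inner retinal neuron genes. The split of calls moved with it, to 3990 higher and 8266 lower with library size alone and to 14359 higher and 1813 lower with inner neuron sums.

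**Figure D1:**
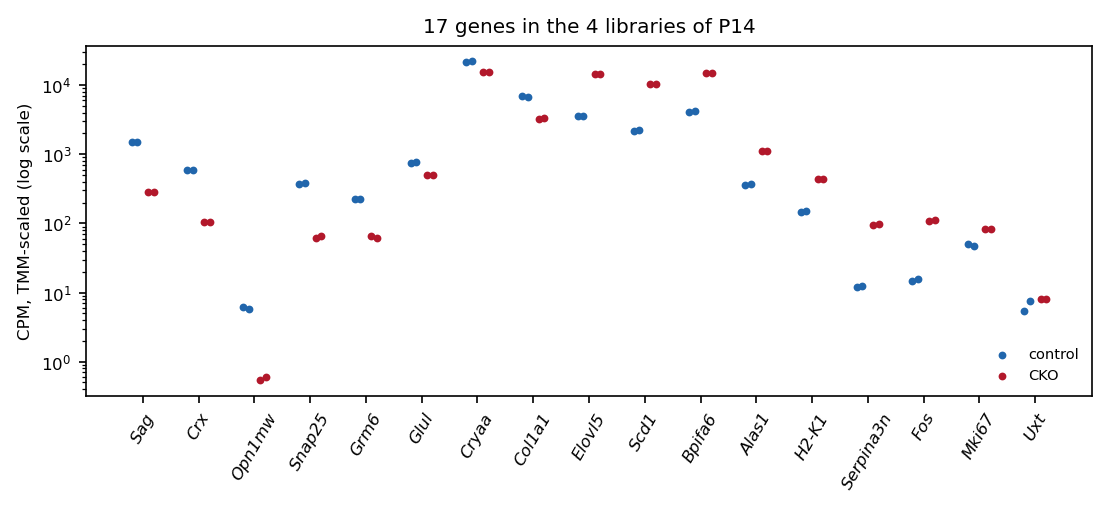
Levels of 17 genes in the 4 libraries of P14, as TMM-scaled CPM on a log axis, with control libraries in blue and CKO libraries in red. The replicates of a group lie close together, and Sag falls from 1492 and 1483 to 285 and 285 CPM while Elovl5 rises from 3547 and 3600 to 14350 and 14546 CPM; on the scale of the median inner neuron gene the log2 fold changes are -0.29 and 4.10.

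The rod phototransduction genes were lower without exception among those listed. All 21 passed the test as lower, against 27.8% of all genes, and all 21 were at least 2-fold lower, against 14.6%. Their median log2 fold change was -2.28, and it was -2.53 with library size alone and -1.27 with inner neuron sums. Their summed level was 13709, 13673, 2828 and 2818 CPM. Sag, the arrestin of rods (chromosome 1, 87803680 to 87845158), stood at 1492, 1483, 285 and 285 CPM. Both CKO libraries were far below both controls, with a 5.22-fold lower level (log2 fold change -2.38, SE 0.06, adjusted p = 7.25e-16). Gnat1, the rod transducin alpha subunit, had 1269, 1243, 298 and 295 CPM (-2.08, SE 0.06). The groups did not overlap here either. Pde6b, a subunit of the rod phosphodiesterase, had 553, 556, 91.8 and 95.0 CPM (-2.57, SE 0.06), and Cnga1, the alpha subunit of the rod channel, had 206, 210, 42.5 and 35.9 CPM (-2.41, SE 0.09). Pdc, which binds the transducin beta and gamma subunits, had the lowest value of the list, with 716, 738, 98.9 and 101 CPM (-2.87, SE 0.07). In bulk RNA, fewer cells of a type, less RNA per cell and a larger share of RNA from other tissue cannot be told apart. This holds for every list below.

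CRX, a transcription factor of photoreceptors, binds sites with the core TAATCC. In RefSeq promoter windows of GRCm38.p6 (250 bases before to 50 after each start), this core or its reverse complement occurred in 8 of 14 windows of the rod phototransduction list (57.1%; 14 of 21 genes matched), in 4 of 20 windows of the outer segment list and in 1 of 15 windows of the cone list (6.67%). Over all tested genes it occurred in 6.22% of 17822 windows. The 150 bases before the start of Sag and Gngt1 (rod genes), Rbp3 (an outer segment list gene) and Gnat2 (a cone gene) are shown because all of these genes fell and each stretch holds 1 match, written in capitals. They lie at chr1:87803530-87803679, chr6:3993858-3994007, chr14:33953853-33954002 and chr3:108092916-108093065, all on the plus strand. A match is a description of the letters and not of binding.
Sag: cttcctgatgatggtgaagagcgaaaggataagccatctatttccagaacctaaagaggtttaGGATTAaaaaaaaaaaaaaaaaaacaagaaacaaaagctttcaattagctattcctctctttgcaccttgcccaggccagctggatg
Gngt1: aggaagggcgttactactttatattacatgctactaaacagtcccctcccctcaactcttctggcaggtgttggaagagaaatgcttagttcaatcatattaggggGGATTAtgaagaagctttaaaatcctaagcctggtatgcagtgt
Rbp3: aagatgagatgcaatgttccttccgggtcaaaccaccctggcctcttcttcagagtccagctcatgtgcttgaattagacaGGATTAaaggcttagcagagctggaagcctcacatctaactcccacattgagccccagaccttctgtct
Gnat2: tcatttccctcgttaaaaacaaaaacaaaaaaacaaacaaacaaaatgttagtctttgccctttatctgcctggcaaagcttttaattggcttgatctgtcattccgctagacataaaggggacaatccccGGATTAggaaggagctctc

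Genes of outer segment structure and retinoid handling fell too: 19 of 19 were lower, 18 of them at least 2-fold. Of all genes, 27.8% were lower, 14.6% at least 2-fold lower and 30.5% higher, shares that also apply to the transcription factors below. The outer segment median was -2.27 on the TMM scale and -0.19 relative to the median inner neuron gene. Prph2, a membrane protein of the disc rim, had 1087, 1083, 194 and 199 CPM (-2.47, SE 0.05). Rbp3, the retinoid carrier between photoreceptors and pigment epithelium, had 1245, 1210, 239 and 257 CPM (-2.31, SE 0.05). Abca4, the retinoid flippase of the discs, had 385, 367, 76.1 and 77.2 CPM (-2.29, SE 0.06). In each of these the highest CKO library was below the lowest control library. The transcription factors of photoreceptors were lower in 14 of 16 cases and higher in 1, with a median of -2.32 (-0.23 relative to inner neurons). Nrl and Nr2e3, which set rod fate, had 664, 672, 110 and 107 CPM (-2.62, SE 0.06) and 604, 616, 87.2 and 80.6 CPM (-2.86, SE 0.05). Crx had 582, 597, 106 and 105 CPM (-2.49, SE 0.04, adjusted p = 1.10e-17). Otx2, which acts before Crx in photoreceptor and bipolar precursors, had 212, 199, 53.2 and 57.1 CPM (-1.90, SE 0.14). Thrb, which encodes a thyroid hormone receptor, was the member that rose, from 55.9 and 54.1 to 101 and 97.7 CPM (0.85, SE 0.06).

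Cone genes had the lowest median of the photoreceptor lists, -2.69, with 14 of 14 lower (-0.60 relative to inner neurons, with 7 lower and 3 higher). Counts in this paragraph are read against 27.8% of all genes lower and 30.5% higher on the TMM scale. Relative to inner neurons these shares were 1.53% and 84.4%. The cone opsin Opn1mw stood at 6.21, 5.80, 0.538 and 0.603 CPM (-3.38, SE 0.27), and the cone opsin Opn1sw at 39.3, 41.2, 4.85 and 4.55 CPM (-3.10, SE 0.78, adjusted p = 0.00841). Cone transducin, Gnat2, had 13.7, 14.99, 3.57 and 3.88 CPM (-1.94, SE 0.15). Levels of Opn1mw in the CKO libraries rested on few counts, since 3 counts were 0.201 to 0.202 CPM there. Ribbon synapse genes were lower in 18 of 19 cases and higher in 1, with a median of -2.12 (-0.03 relative to inner neurons). Cabp4, a calcium-binding protein of the photoreceptor terminal, had 48.2, 51.2, 8.14 and 9.65 CPM (-2.48, SE 0.11). Slc17a7, the vesicular glutamate transporter, had 537, 531, 107 and 112 CPM (-2.29, SE 0.10). Both groups kept apart for these genes. The higher member was Dag1, a cell surface receptor of laminins that many tissues express, with 253, 244, 355 and 359 CPM (0.52, SE 0.09). Genes of the photoreceptor cilium and transport had a smaller median, with 26 of 30 lower, none higher and a median of -1.06, but 1.03 relative to inner neurons. Within this list Rpgrip1, a protein of the photoreceptor connecting cilium, had 1085, 1081, 182 and 191 CPM (-2.54, SE 0.11), whereas Ift88, a transport protein of cilia in general, had 26.4, 26.5, 16.2 and 19.2 CPM (-0.58, SE 0.10).

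Genes of the inner retinal neurons fell as well, and their counts are read against 27.8% of all genes lower and 30.5% higher. Bipolar cell genes were lower in 24 of 26 cases and higher in 1 (median -2.09), amacrine cell genes lower in 19 of 25 and higher in 4 (median -1.79), horizontal cell genes lower in 9 of 9 (median -2.48) and ganglion cell genes lower in 16 of 18 and higher in 1 (median -2.64). These directions held under every planned scale, among them the scale set by the summed counts of these same genes. On a scale added later and set by their median gene, the bipolar and amacrine medians became 0.00 and 0.29. Values near 0 on that scale are largely by construction. Sums and medians differed, since the summed level of the amacrine list was 1367, 1346, 1107 and 1126 CPM beside its median of -1.79. Grm6, through which ON bipolar cells sense glutamate, had 223, 223, 65.9 and 61.2 CPM (-1.81, SE 0.06). Trpm1, the channel of ON bipolar cells, which melanocytes also express, fell less, with 452, 452, 232 and 238 CPM (-0.94, SE 0.05). Among amacrine genes, Gad1, an enzyme that makes GABA, had 64.3, 58.2, 10.8 and 8.98 CPM (-2.63, SE 0.15). Pax6, which lens, cornea and iris also express, rose from 346 and 341 to 464 and 468 CPM (0.44, SE 0.04). Tfap2c rose from 40.5 and 42.5 to 125 and 127 CPM (1.60, SE 0.07). The horizontal cell factors Lhx1 and Onecut1 were scarce, with 2.78, 2.52, 0.135 and 0.402 CPM and with 1.18, 1.04, 0 and 0.134 CPM. Nefl, a neurofilament of ganglion cell axons, had 112, 116, 14.4 and 13.5 CPM (-3.03, SE 0.18). Rbpms, which marks ganglion cells in the retina and occurs in muscle, rose from 43.2 and 48.0 to 74.5 and 79.1 CPM (0.75, SE 0.07). The part of other tissues in the levels of Trpm1, Pax6 and Rbpms was not tested.

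A list of pan-neuronal genes, drawn up after these data had been seen, was lower in 16 of 16 cases, against 27.8% of all genes. The median was -2.38 (-0.29 relative to inner neurons), and 2 of its members are also in other lists. Since the P14 values were known when the list was drawn up, the count of lower genes is not evidence of an excess. The summed level of the pan-neuronal list was 3662, 3639, 893 and 909 CPM. Snap25, a protein of synaptic vesicle fusion, had 370, 381, 61.0 and 66.5 CPM (-2.56, SE 0.11). Tubb3, the neuronal tubulin, had 71.9, 66.8, 8.68 and 9.31 CPM (-2.95, SE 0.23). Over the 7 lists of rod, outer segment, cone and inner neuron genes, 122 of 132 tested genes were lower, 6 were higher and 115 were at least 2-fold lower, against 27.8% of all genes lower and 14.6% at least 2-fold lower. The groups did not overlap for any of the 132 genes, against 80.0% of all genes.

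**Figure D2:**
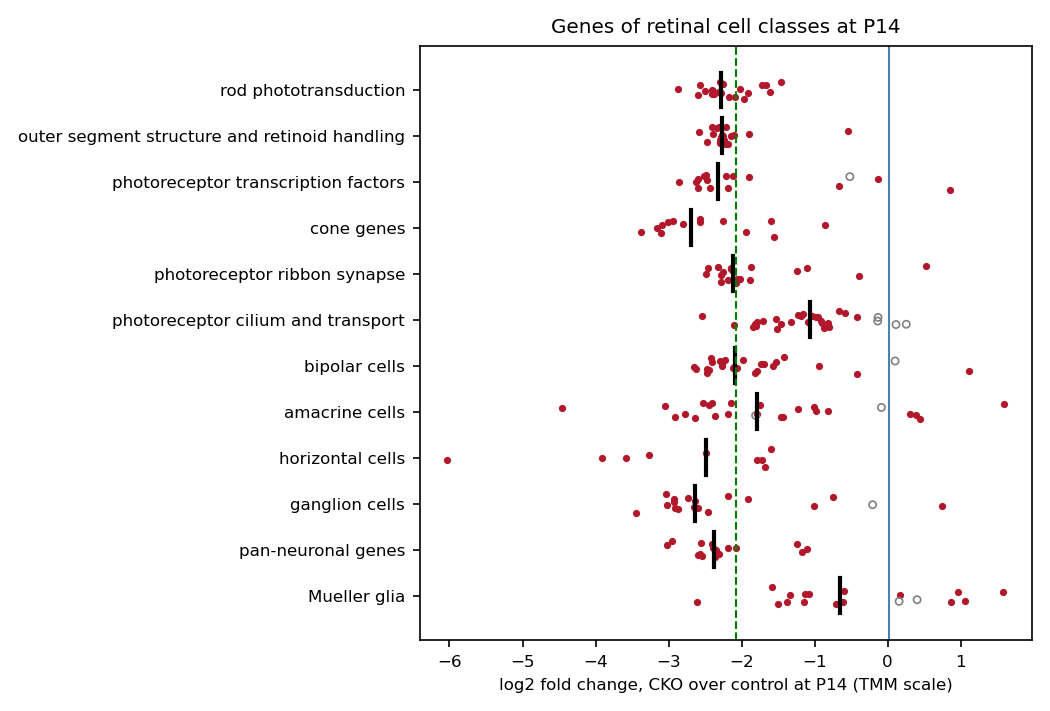
Log2 fold change of each tested gene in 12 lists of retinal cell classes at P14 on the TMM scale, 1 point per gene, filled where adjusted p was under 0.05, with a black bar at the list median. The blue line is the median of all genes (0.02) and the dashed green line the median inner neuron gene. Neuron medians lie near the green line, at -1.79 to -2.69, except that of photoreceptor cilium and transport, at -1.06. Inner neuron genes set this line themselves, so the nearness of their own lists is largely by construction and is not a result. Müller glia lie at -0.65, which becomes 0.35 with inner neuron sums as the scale.

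To compare the cell classes with each other, the libraries were also scaled so that the median of 78 bipolar, amacrine, horizontal and ganglion cell genes did not differ within an age, a scale added after the data had been seen. It moved the median of all genes by 2.08 to 2.10. On this scale 17820 genes were higher (84.4%) and 323 lower (1.53%). Of the 21 rod phototransduction genes, 8 were lower and 2 higher, with a median of -0.19, and of the 19 outer segment genes 4 were lower and 1 higher. Sag remained lower relative to inner neurons (-0.29, SE 0.11, adjusted p = 0.0161), as did Nrl (-0.53, SE 0.15, adjusted p = 0.00254). Gnat1 stood at 0.00 (SE 0.15, adjusted p = 0.978). Ganglion cell genes (11 of 18 lower, 4 higher) and cone genes (7 of 14 lower, 3 higher) had more members below the scale. On this added scale the rod median was -0.19 at P14, beside -0.27 at P7 and -1.55 at P30, whereas on the planned scale of inner neuron sums it was -1.27 at P14, so its distance from inner neurons depends on how these are summarised.

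The 3 ages gave different pictures of the same lists. On the TMM scale the rod phototransduction median was -0.56 at P7, -2.28 at P14 and -2.21 at P30, while the bipolar cell median was -0.48, -2.09 and -0.66. The difference between ages was tested as an interaction. Sex markers differed between the ages too. Mean Xist was 1201 and 809 CPM in the P14 control and CKO groups, and 0.634 and 0.624 CPM at P30. Ddx3y, a gene of the Y chromosome, had means of 0.0274 and 0.0337 CPM at P14 and of 79.1 and 83.5 CPM at P30. Age and sex therefore cannot be told apart between P14 and P30, nor genotype and sex at P7. Between P14 and P7, 5034 genes had a higher log2 fold change at P14 (23.8%) and 5208 a lower one (24.7%), and between P14 and P30, 4471 were higher (21.2%) and 5027 lower (23.8%). Of the rod genes, 20 of 21 had a lower fold change at P14 than at P7. Against P30, 5 were higher and 5 lower. Of the bipolar genes, 23 of 26 were lower at P14 than at P7 and 18 of 26 lower than at P30. Ganglion cell genes were lower at P14 in 15 and 17 of 18 cases against P7 and P30. On the inner neuron scale, where 67.7% of all genes were higher at P14 than at P30 and 2.19% lower, all 21 rod genes and all 19 outer segment genes were higher at P14 than at P30, with median differences of 1.45 and 1.21 beside 1.40 for all genes, so these lists did not stand apart from the shift of all genes. Without either P30 CKO library, the counts of genes called between P14 and P30 on the TMM scale were 10078 and 10478, against 9498 with both.

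**Figure D3:**
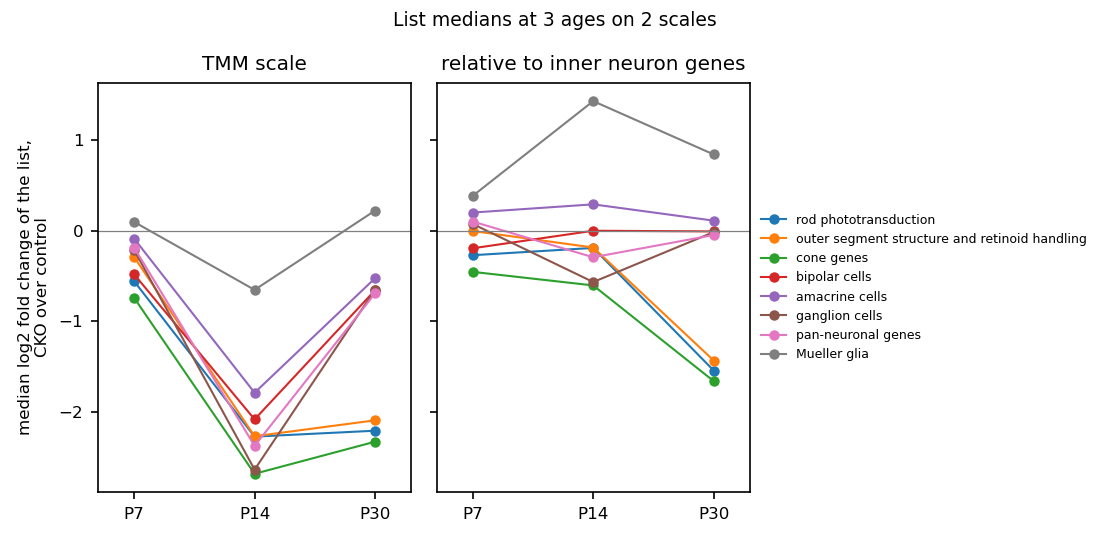
Median log2 fold change of CKO over control in 8 lists at P7, P14 and P30, on the TMM scale (left) and relative to the median inner neuron gene (right), 1 line per list. On the left the bipolar list is at -0.48, -2.09 and -0.66, while the rod list is at -0.56, -2.28 and -2.21. On the right the rod list is at -0.27, -0.19 and -1.55 and the bipolar list at -0.19, 0.00 and -0.01. Bipolar, amacrine and ganglion cell genes are among those that set the scale on the right, so their small values there are largely by construction.

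Müller glia genes moved in both directions: 11 of 18 fell and 5 rose, against 27.8% of all genes lower and 30.5% higher. The share of members that rose was near that of all genes. The list median was -0.65 on the TMM scale, 0.35 with inner neuron sums and 1.43 relative to the median inner neuron gene. Counts of the other lists in this paragraph are read against the same shares. Glul, the glutamine synthetase of Müller glia, had 747, 772, 500 and 500 CPM (-0.60, SE 0.05). Rlbp1, a retinoid carrier of Müller glia and pigment epithelium, had 218, 229, 104 and 98.5 CPM (-1.14, SE 0.18). Sox9, a transcription factor that many epithelia share, rose from 49.9 and 52.4 to 109 and 106 CPM (1.07, SE 0.06), and Dbi, an acyl-CoA binding protein, rose from 1115 and 1146 to 3409 and 3353 CPM (1.58, SE 0.05). Of 22 genes of reactive gliosis, the response of retinal glia to injury, 13 rose and 5 fell (median 0.53). Serpina3n, a secreted protease inhibitor, had 11.99, 12.5, 93.1 and 96.9 CPM, a 7.76-fold rise (2.96, SE 0.09, adjusted p = 5.58e-15). Lcn2, an iron-carrier binding protein, had 4.23, 5.47, 26.5 and 25.9 CPM (2.43, SE 0.18). Edn2, an endothelin released by stressed photoreceptors, had 1.12, 1.20, 4.91 and 5.63 CPM (2.17, SE 0.75, adjusted p = 0.0321). Gfap, the intermediate filament that defines gliosis, went the other way on the TMM scale, with 219, 219, 140 and 138 CPM (-0.66, SE 0.08). Relative to inner neurons it stood at 1.43, below the median of 2.10 for all genes on that scale. Of 8 retinal astrocyte genes, 5 fell and 2 rose (median -0.84, or 0.16 with inner neuron sums). Progenitor and neurogenic precursor genes were lower in 9 of 16 cases and higher in 2 (median -0.96, or 0.04 with inner neuron sums).

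Genes of lipid synthesis had high levels and rose further. A list of 14 genes of fatty acid synthesis and desaturation was drawn up after these data had been seen. Of these, 13 were higher and none lower, where 30.5% of all genes were higher and 27.8% lower. The list had a median of 1.91 on the TMM scale and 1.65 or more under every other scale. Its summed level was 14091, 14026, 54164 and 55282 CPM, and both CKO libraries were far above both controls. Elovl5, a fatty acid elongase (chromosome 9, 77917364 to 77984519), had 3547, 3600, 14350 and 14546 CPM (2.02, SE 0.05, adjusted p = 5.06e-16). Scd1, a desaturase (chromosome 19, 44394455 to 44407879), had 2188, 2200, 10247 and 10411 CPM (2.24, SE 0.07). Fasn, the fatty acid synthase, had 2229, 2167, 9073 and 9493 CPM (2.08, SE 0.06). Both CKO libraries exceeded both controls, 4.04-fold for Elovl5, 4.71-fold for Scd1 and 4.22-fold for Fasn on average. Acly, which makes cytosolic acetyl-CoA, had 1322, 1293, 4690 and 4779 CPM (1.86, SE 0.05). Levels of the list differed between ages already in the controls, with a mean sum of 2048 CPM at P1, 2687 at P7, 14058 at P14 and 2206 at P30. At the other ages the CKO libraries had sums of 2790 CPM on average at P7 and of 2756 and 2845 CPM at P30. The fold change was higher at P14 than at P7 for 13 of the 14 genes and higher than at P30 for 10 of them. Of all genes, 23.8% and 21.2% were. Because the list was drawn up with the P14 values known, these counts are not evidence of an excess.

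Further lists of the same kind rose with it. They too were drawn up with the values known, so their counts are not evidence of an excess either. Of all genes, 30.5% were higher and 27.8% lower. Ether lipid, ceramide and fat storage genes rose in 14 of 16 cases and fell in 2 (median 1.41), and peroxisome and fatty acid oxidation genes in 12 of 12 (median 1.43). Plin2, which coats lipid droplets, had 1649, 1679, 5868 and 5893 CPM (1.82, SE 0.05). Cyp4a10, a fatty acid hydroxylase, had 7.92, 7.61, 82.9 and 80.0 CPM, a 10.5-fold rise (3.39, SE 0.13). Pex11a, a protein of peroxisome division, had 75.7, 78.1, 274 and 276 CPM (1.84, SE 0.06). Heme and porphyrin synthesis genes rose in 8 of 8 cases (median 1.45), and the summed level was 964, 978, 2658 and 2639 CPM. Alas1, the first enzyme of that pathway outside red cells, had 362, 373, 1128 and 1127 CPM (1.62, SE 0.06). Alas2, the red cell form, did not pass the test (30.2, 30.8, 30.8 and 30.5 CPM), and none of 7 erythroid genes did. Bpifa6 (chromosome 2, 153974945 to 154000495), a secreted protein of the BPI fold family, had the largest rise in level of all genes, with 4136, 4266, 15161 and 15022 CPM (1.85, SE 0.27, adjusted p = 9.94e-04), and its mean in both P30 groups was 0. As background, synthesis of lipids and porphyrins together is a known feature of the Harderian gland, which lies in the orbit of rodents. The part of such tissue in the differences at P14 was not tested.

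**Figure D4:**
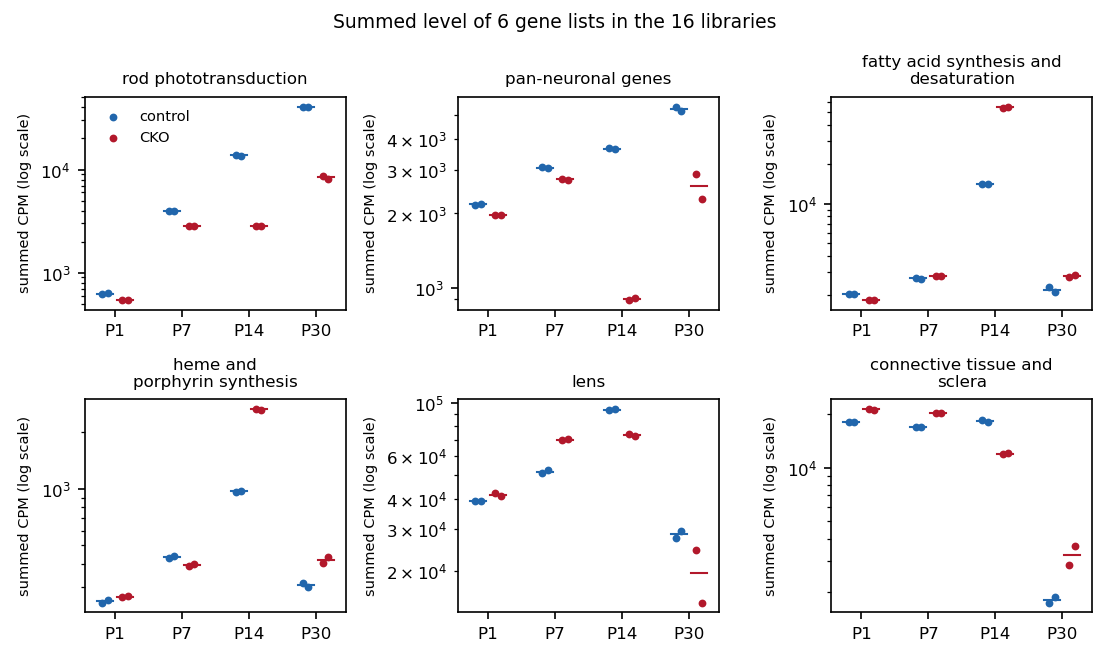
Summed level of 6 gene lists in each of the 16 libraries as TMM-scaled CPM on log axes, by age, with control libraries in blue, CKO libraries in red and lines at group means. The fatty acid list stands at 14091 and 14026 CPM in the P14 controls and at 54164 and 55282 CPM in the P14 CKO libraries, and the rod list at 13709 and 13673 against 2828 and 2818 CPM.

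Cholesterol synthesis genes rose in 14 of 17 cases and fell in 2 (median 1.08), against 30.5% of all genes higher and 27.8% lower. These shares also apply to the other lists of this paragraph. Insig1, a sterol sensor partner, had 269, 266, 1098 and 1104 CPM (2.04, SE 0.07). A list of fatty acid elongation and lipid genes of photoreceptors was split, with 8 of 13 lower and 5 higher (median -0.76, or 0.24 with inner neuron sums). Of its members, 4 are also in other lists. Scd1 and Fasn, which rose, belong to it and to the list of fatty acid synthesis and desaturation. Elovl4, the elongase that makes very long chain fatty acids of outer segments, had 169, 164, 33.7 and 34.9 CPM (-2.28, SE 0.07), in the opposite direction to Elovl5. Autophagy and lysosome genes rose in 18 of 24 cases and fell in 1 (median 0.48). Npc2, a lysosomal cholesterol carrier, had 631, 632, 2235 and 2239 CPM (1.82, SE 0.05). Genes against oxidative stress, of iron handling and metallothioneins rose in 15 of 20 cases and fell in 2 (median 0.56). Glycolysis and lactate genes were lower in 10 of 24 cases and higher in 3, with a median of 0.01 that other scales move to either side. Hk1 and Hk2, hexokinases of the first glycolytic step, went opposite ways, with 310, 302, 125 and 131 CPM (-1.26, SE 0.07) and with 63.7, 62.3, 155 and 163 CPM (1.34, SE 0.22). Nuclear genes of mitochondrial respiration rose in 14 of 26 cases and fell in 1 (median 0.35).

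Lists of activity and stress genes had more members higher than lower, against 30.5% of all genes higher and 27.8% lower. Activity regulated genes were higher in 11 of 16 cases and lower in 1, with a median of 1.14 on the TMM scale. Fos, an immediate early transcription factor, had 14.6, 15.9, 109 and 113 CPM (2.87, SE 0.22), Fosb had 5.89, 5.58, 58.6 and 60.8 CPM (3.38, SE 0.50), and Nr4a1, a nuclear receptor of the same response, had 44.9, 45.7, 276 and 285 CPM (2.63, SE 0.37). The groups were far apart for these genes. Vgf, a secreted neuropeptide precursor, fell from 7.66 and 7.44 to 1.62 and 1.88 CPM (-2.11, SE 0.20). Genes of the unfolded protein and integrated stress response rose in 16 of 24 cases and fell in 3 (median 0.51). Atf3, a stress-induced transcription factor, had 4.44, 3.67, 25.4 and 23.2 CPM (2.58, SE 0.25), and Hspa5, the main chaperone of the endoplasmic reticulum, had 427, 431, 622 and 620 CPM (0.53, SE 0.08). Ddit3, a death-promoting factor of that response, was lower, with 21.8, 20.5, 17.1 and 17.3 CPM (-0.30, SE 0.11, adjusted p = 0.0222). Chaperonin and heat shock genes rose in 13 of 20 cases and fell in 1 (median 0.30). Genes of p53 targets were higher in 11 of 22 cases and lower in 2 (median 0.32), and cell death executors higher in 10 of 21 and lower in 2 (median 0.24, or -0.01 with library size alone). Cell cycle genes rose in 18 of 20 cases and none fell (median 0.81). Mki67, a marker of dividing cells, had 50.4, 47.4, 82.1 and 82.9 CPM (0.75, SE 0.26, adjusted p = 0.0371).

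Immune lists are read here against the 30.5% of all genes that were higher and the 27.8% that were lower. Antigen presentation genes were higher in 12 of 18 cases and lower in 1, with a median of 0.85. H2-K1, a class I molecule, had 145, 149, 444 and 442 CPM (1.59, SE 0.24, adjusted p = 4.42e-04). Interferon response genes were higher in 12 of 22 cases and lower in 1 (median 0.58). Ifih1, a sensor of viral RNA, had 11.7, 10.3, 22.5 and 23.2 CPM (1.05, SE 0.12). Isg15, an interferon-induced ubiquitin-like protein, did not pass the test, with 4.07, 3.56, 3.90 and 3.62 CPM (-0.02, SE 0.53, adjusted p = 0.980). Complement genes rose in 11 of 18 cases and fell in 1 (median 0.29), among them C3, the central component, with 17.6, 18.2, 51.6 and 54.9 CPM (1.57, SE 0.10). Of 17 genes of resting microglia, 2 were higher and 3 lower (median -0.01, a sign that changes between scales). Cx3cr1, a chemokine receptor of microglia, had 15.15, 15.05, 12.3 and 11.8 CPM (-0.33, SE 0.13, adjusted p = 0.0394). Genes of activated microglia and macrophages were higher in 8 of 20 cases and none was lower (median 0.23, or -0.02 with library size alone), a share of higher genes not far from that of all genes. Chemokine, cytokine and adhesion genes were higher in 7 of 18 cases and lower in 2 (median 0.24, or -0.02 with library size alone).

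Promoters of the interferon list often held an interferon motif. The motif GAAANNGAA, part of the element bound by interferon-activated factors, occurred on either strand in 13 of 21 windows of the interferon list (61.9%; 18 of 22 genes matched) and in 7.43% of all 17822 windows. TTCNNNGAA, the STAT motif, occurred in 3 of 18 windows of the reactive gliosis list (16.7%) and in 6.95% of all. The 150 bases before the start are shown for a gene that rose, Ifih1 (chr2:62646256-62646405, minus strand), and for one that did not pass the test, Isg15 (chr4:156200819-156200968, minus strand). Capitals mark the motif, and in Isg15 the 3 matches overlap.
Ifih1: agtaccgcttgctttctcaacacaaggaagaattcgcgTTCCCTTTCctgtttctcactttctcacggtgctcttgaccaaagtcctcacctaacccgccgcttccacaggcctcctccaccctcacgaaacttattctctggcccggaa
Isg15: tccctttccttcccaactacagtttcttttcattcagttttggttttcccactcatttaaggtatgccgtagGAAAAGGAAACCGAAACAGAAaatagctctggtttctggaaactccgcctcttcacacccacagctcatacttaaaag

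Of 30 splicing factors, 9 were higher and 11 lower (median 0.01, a sign that changes between scales), which is near the 30.5% and 27.8% of all genes. The lower ones included the neuronal factors Srrm4, which acts on microexons, with 133, 124, 21.1 and 23.7 CPM (-2.52, SE 0.09), and Msi1, which acts in photoreceptors, with 417, 407, 90.5 and 88.9 CPM (-2.20, SE 0.09). Prpf31, a core splicing factor of all cells, did not pass the test (39.7, 41.5, 38.3 and 36.4 CPM). Photoreceptor survival factors were higher in 7 of 17 cases and lower in 7. Nxnl1, the rod-derived cone viability factor, had 112, 111, 14.9 and 17.01 CPM (-2.80, SE 0.08).

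Lists of neighbouring tissues are read against 27.8% of all genes lower and 30.5% higher. Lens genes were lower in 9 of 22 cases and none was higher (median -0.39, or 0.61 with inner neuron sums). Their summed level was 93358 and 94464 CPM in the controls and 74537 and 73004 CPM in the CKO libraries. Cryaa, the lens alpha crystallin, had 21587, 21923, 15270 and 15428 CPM (-0.50, SE 0.17, adjusted p = 0.0269). Connective tissue and sclera genes were lower in 8 of 12 cases and higher in 1 (median -0.52, or 0.49 with inner neuron sums). Their summed level was 18590 and 18227 against 11959 and 12110 CPM. Col1a1, the main collagen of sclera, had 7000, 6761, 3226 and 3376 CPM (-1.06, SE 0.09). Pigment epithelium and melanocyte genes were lower in 10 of 18 cases and none was higher (median -0.33, or 0.68 with inner neuron sums), with sums of 2950 and 2969 against 2463 and 2477 CPM. Cornea, iris and ciliary body genes were lower in 6 of 13 cases and higher in 4 (median -0.37, or 0.64 with inner neuron sums), with sums of 1550 and 1520 against 992 and 1030 CPM. Krt12, the keratin of corneal epithelium, had 98.1, 96.2, 11.0 and 12.2 CPM (-3.06, SE 0.18), and it was lower relative to inner neurons too (-0.98, SE 0.22). Of 20 endothelium and pericyte genes, 9 were higher and 1 lower (median 0.30), and of 11 muscle genes 1 was higher and 1 lower (median 0.17, or -0.08 with library size alone). Erythroid genes had a median of -0.16, or 0.85 with inner neuron sums. No gene of these 7 lists was at 0 counts in any library of P14. Their part in the differences of retinal genes was not tested.

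**Figure D5:**
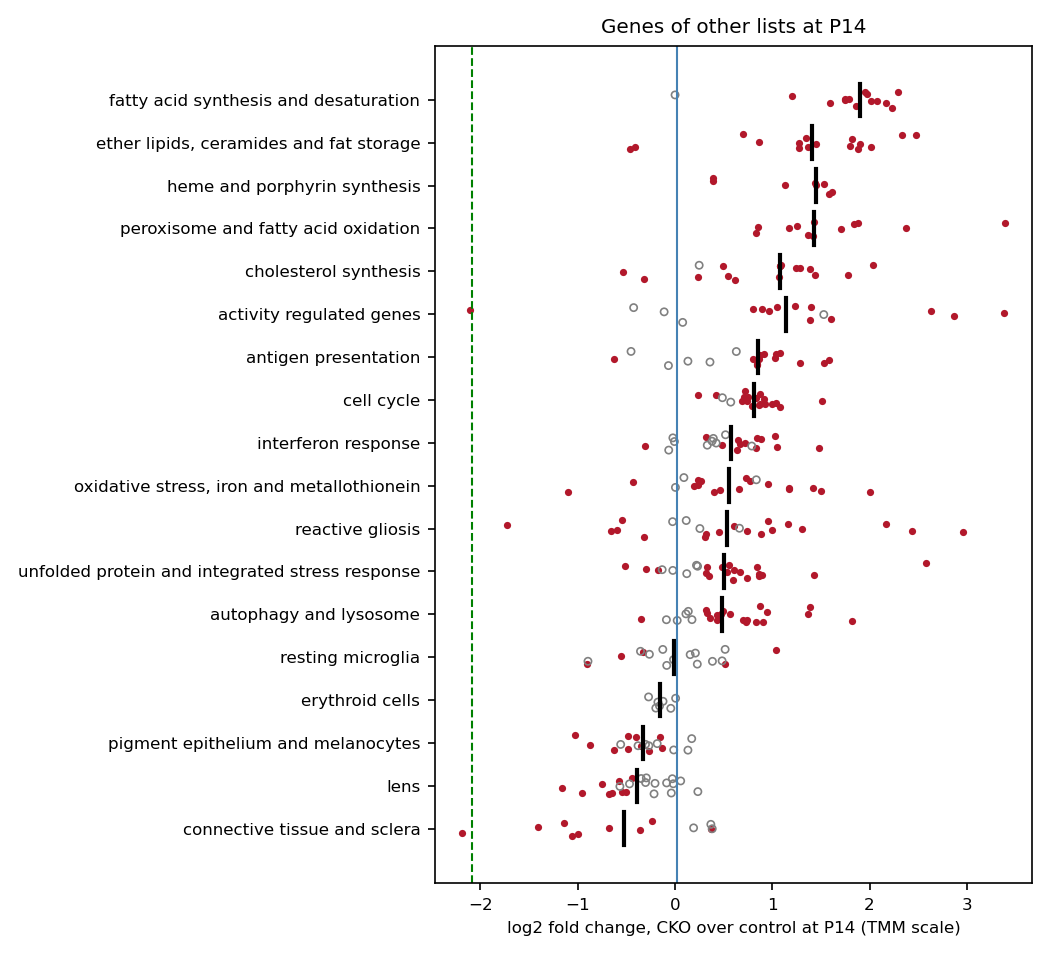
Log2 fold change of each tested gene at P14 on the TMM scale in 18 lists of lipid, stress, immune and neighbouring tissue genes, filled where adjusted p was under 0.05, with bars at list medians. The blue line is the median of all genes (0.02) and the dashed green line the median inner neuron gene; the fatty acid list has a median of 1.91, resting microglia -0.01, and lens -0.39, which becomes 0.61 with inner neuron sums as the scale.

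Among called genes with non-overlapping groups and at least 5 CPM in the higher group, the largest falls were those of Crhbp, Optc and Lhx9. The largest rises were those of Prb1, Car4 and Scgb2b7. Predicted genes were left out of this ranking. Crhbp, which binds corticotropin-releasing hormone, had 9.74, 11.1, 0.269 and 0.402 CPM (-4.92, SE 0.31, adjusted p = 9.25e-11) and was lower relative to inner neurons as well (-2.85, SE 0.44). Optc, an extracellular protein of the ciliary body and vitreous, had 34.6, 38.4, 2.56 and 2.95 CPM (-3.73, SE 0.14). Lhx9, a LIM homeodomain factor of some amacrine cells, had 6.80, 6.40, 0.404 and 0.670 CPM (-3.60, SE 0.27). Aldh3a1, the abundant crystallin-like dehydrogenase of cornea, had 274, 258, 25.04 and 27.7 CPM (-3.33, SE 0.09), and Rims1, a protein of the synaptic active zone, had 35.6, 37.97, 3.70 and 3.95 CPM (-3.26, SE 0.12). On the other side, Prb1, a proline-rich secreted protein, had 0.268, 0.492, 4.64 and 6.43 CPM (3.85, SE 1.18, adjusted p = 0.0239), so its control level rests on few counts. Car4, a membrane carbonic anhydrase, had 2.09, 1.81, 22.8 and 20.7 CPM (3.47, SE 0.24), and Scgb2b7, a secretoglobin, had 2.09, 1.64, 20.9 and 20.7 CPM (3.47, SE 0.14). Prss56, a serine protease whose loss is known to shorten the eye, had 12.2, 11.4, 118 and 118 CPM (3.32, SE 0.45, adjusted p = 1.92e-04). The secreted lipase Lipf had 2.03, 1.70, 20.3 and 15.3 CPM (3.25, SE 0.26). That the 2 groups did not overlap in these genes was a condition of their choice and is not a result. The calls of Cryaa, Cx3cr1, Ddit3, Edn2, Mki67 and Xist were lost when any single library of P14 was left out (adjusted p of 0.0525 to 0.238), and so were those of Opn1sw without either CKO library (0.0506 and 0.0539), and of Prb1 without either control library or CKO replicate 2 (0.0789 to 0.105). DESeq2 did not call Bpifa6, Cx3cr1, Ddit3 or Xist (adjusted p of 0.238, 0.157, 0.112 and 0.376).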

How the data were processed

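Reads were aligned with HISAT2 to mm10 and counted per gene with HTSeq, per the submitters' processing notes, and the counts per gene were deposited without normalization; versions, strand setting and annotation release are not given in the sources used here. Of 54532 identifiers, 54495 took a symbol from GENCODE M21. The 16 libraries were grouped by their labels and fitted together with edgeR 4.0.16 (R 4.3.3, limma 3.58.1; quasi-likelihood test, robust, TMM factors, filterByExpr) with 1 mean per group, which left 8 residual degrees of freedom. Tests were two-sided with Benjamini-Hochberg adjustment at 0.05, and n was 2 per group. The common biological coefficient of variation was 0.0635. Differences between ages were interaction terms of the same fit. DESeq2 1.42.0, other scales, filters, sample sets, a replicate block and leaving out each P14 library were alternatives. Figures used Python 3.11.15 and matplotlib 3.10.9.

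Genes were named by rule: listed key genes, the 12 largest rises and falls of at least 2-fold and 5 CPM, the 10 largest in CPM in each direction, up to 4 called members of each list in its main direction and 2 in the other, and the 5 largest interactions in each direction. The 12 largest rises and falls were drawn only from called genes whose groups did not overlap, without predicted genes. The text describes a part of the named genes. The comparison, the 43 gene lists and the tests were chosen with earlier results of these data known, and 5 further lists were added later. A test on simulated data for P14 CKO against control changed 200 of 21115 genes and recovered 62.7% at 1.5-fold, 82.1% at 2-fold and 100% at 4-fold, with 11 false calls (6.32% of calls). Its changes were few and balanced up and down, whereas 58.3% of genes were called in the data. It therefore does not test the choice of scale, and its share of false calls does not carry over. Results of a few genes are not reported here.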

Additional observations from a re-analysis of the deposited data

Results flagged for a closer look

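The fold change of CKO over control at P14 differed from that at P7 for 10242 genes and from that at P30 for 9498 genes, by the interaction term of edgeR's quasi-likelihood fit, which is why the genes below are given. The sex check differs at P7, where genotype and sex cannot be told apart: the P14 minus P7 difference in log2 fold change was 11.22 for Ddx3y (adjusted p = 0.00211) and -9.89 for Xist (adjusted p = 1.99e-09). At P30 the levels of both genes differ from P14 in both groups, so age and sex cannot be told apart between these ages.

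Among genes that passed the test, others with a far higher fold change at P14 than at P7 were Lipo4 (8.44), Gm14743 (8.04), Gm1553 (7.98) and Gm5938 (7.91). In these 4 genes the CKO group was lower than the control group at P7 and higher at P14, and Gm1553 had means of 192 and 5.36 CPM at P7 and of 5.34 and 37.7 CPM at P14. Far lower fold changes at P14 than at P7 were found for Gm47233 (-9.70), AA623943 (-5.22), Arid3c (-4.77) and Crhbp (-4.42). Arid3c, a DNA-binding protein of the ARID family, had means of 10.5 and 15.3 CPM at P7 and of 3.90 and 0.202 CPM at P14.

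Against P30, among genes that passed the test and reached 5 CPM in a group, the difference was highest for Capn11 (5.44), Prss16 (5.13), Hdc (4.63), A630023A22Rik (4.14) and Gm20275 (3.97). Hdc, the enzyme that makes histamine, had means of 1.03 and 3.52 CPM at P14 and of 39.2 and 5.41 CPM at P30. Among the same genes it was lowest for Gm47233 (-11.44), Avp (-7.82), Gcg (-7.54), Gm12802 (-6.31) and 9430037G07Rik (-6.09). Gcg, the glucagon precursor, had means of 5.09 and 0.504 CPM at P14 and of 0.0288 and 0.665 CPM at P30. Several of these genes have a group at or near 0 counts, where the size of the fitted difference depends on the prior count.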

How the results depend on the processing

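Library size alone gave 3990 higher genes (1226 at least 2-fold), with 2643 higher at P14 than at P30. Inner neuron sums gave 14359 higher and 1813 lower genes, 11329 at least 2-fold (10282 higher, 1047 lower), with 11752 higher and 1886 lower against P7 and 11152 higher and 1660 lower against P30. Other settings called 10891 to 13705 genes at P14, and leaving out a library 10831 to 10917. The rod median was -2.22 with RLE and with DESeq2, -2.53 with library size, -2.21 without lens genes, -1.27 with inner neuron sums, -2.34 with P14 alone, -2.33 with P7 and P14, -2.23 without P30, -2.23 to -2.19 leaving out a library and -0.19 on the added inner neuron median. Uxt was called with inner neuron sums (1.31) and without P30 (0.36), and leaving out a library gave 0.13 to 0.62.

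Medians changed sign with inner neuron sums for Müller glia (0.35), photoreceptor lipids (0.24), survival factors (0.66), progenitors (0.043), pigment epithelium (0.68), astrocytes (0.16), lens (0.61), cornea (0.64), connective tissue (0.49) and erythroid cells (0.85). On the inner neuron median the same lists stood at 1.43, 1.33, 1.74, 1.13, 1.76, 1.24, 1.70, 1.72, 1.57 and 1.93, and cilium at 1.03, bipolar cells at 0.00050 and amacrine cells at 0.29. With library size alone the signs of activated microglia (-0.022), chemokines (-0.018), cell death (-0.013), prefoldins (-0.00073) and muscle (-0.083) changed, and with a 5 CPM minimum that of survival factors (0.097). Inner neuron sums turned Cryaa (0.50), Cx3cr1 (0.67), Ddit3 (0.71), Gfap (0.35), Glul (0.40), Ift88 (0.42), Prpf31 (0.88), Trpm1 (0.059), Vbp1 (0.45) and Xist (0.43), and library size alone Uri1 (-0.0058). The scales differ by construction in the level they hold fixed; which of them fits these libraries was not tested. Of 89 named genes, 70 kept direction and side of the threshold in all planned settings.

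Same-numbered libraries did not deviate together (correlation at P14 -0.028), and the main fit did not pair them. The P14 replicates lay close together (chi-square divided by its degrees of freedom 1.54 and 1.66), so this correlation cannot exclude a pairing. With a replicate block, the quasi-likelihood test called 12023 genes and not Mki67, Prb1 or Xist (adjusted p of 0.147, 0.0552 and 0.0548). Genes near 3 counts are limited by depth.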
